A study of Mus musculus with 40 samples.

Results

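The 30 genes described here build cholesterol or regulate and export it. They are 19 enzymes of sterol synthesis, 4 regulators (Srebf2, Scap, Insig1 and Insig2), 3 sterol exporters (Abcg5, Abcg8 and Abca1) and 4 further genes (Stard4, Ggps1, Tmem97 and Mylip). They were taken by symbol from 4 expression tables that together list 20078 genes, and all 30 are listed in both liver tables and 28 in each fat table. The tables come from 3′-tag sequencing, in which each polyadenylated transcript is read close to its 3′ end. In the order used below, the groups are female liver, male liver, female gonadal white fat (gWAT, the depot around the gonads) and male gWAT, each from C57BL/6J offspring of nicotine-exposed fathers and of control fathers. No transgene is named, C57BL/6J is the genotype given throughout, and every sample has batch number 1. The table headers call the control DMSO. The labels state no age, dose, litter or father for a sample, so each p-value reflects the spread among these samples alone, part of which may be technical.

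The labels assign 40 samples to 8 groups of 5, and 39 libraries were analysed, because the male gWAT table has 4 control columns whose names do not show which sample each one is. The libraries held 1543208 to 2239073 reads assigned to genes. The labelled tissues carried their own markers: 5 hepatocyte genes summed to 46524 to 82055 normalized counts in liver libraries and 102 to 2828 in gWAT libraries, and 5 adipocyte genes (4 of them listed in the liver tables) to 4183 to 14110 in gWAT and 1.82 to 78.6 in liver, in tables that were normalized separately. Some libraries stood apart in marker genes of other cells: male liver nicotine libraries 1, 2, 4 and 5, female liver nicotine library 5 and control library 4, female gWAT control library 2, and male gWAT nicotine library 1 and control column 1. Their values are given beside the results they touch.

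Cholesterol is built from acetyl-CoA through mevalonate, isoprenoids, squalene and lanosterol. The transcription factor SREBP2, encoded by Srebf2, turns the enzymes on when sterols run low: the escort protein SCAP carries it from the endoplasmic reticulum to the Golgi for cleavage, and the retention proteins INSIG1 and INSIG2 hold the pair back when sterols are plentiful. The liver is a main site of cholesterol synthesis and also secretes it into bile through the heterodimer of ABCG5 and ABCG8, while ABCA1 loads cholesterol onto high-density lipoprotein. Transcription of the exporters and of Mylip is driven by the oxysterol receptor LXR, so that synthesis and export genes are usually regulated in opposite directions.

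Values below are normalized counts, and a change is the difference, nicotine minus control, of log2(normalized count + 1) ± SE, which understates the change of low genes. A gene was called when its limma p, adjusted by Benjamini-Hochberg over all genes of the table with a mean of 10 or more, was under 0.05. Exons of 10 of the genes overlap an exon on the other strand (Hmgcs1, Idi1, Fdft1, Lss, Cyp51, Scap, Ggps1, Lbr, and Abcg5 with Abcg8); strand use in the authors' counting is not given in the sources used here, so reads of such pairs may be mixed. In bulk tissue, fewer cells of a type and less RNA per cell cannot be told apart.

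**Figure D1:**
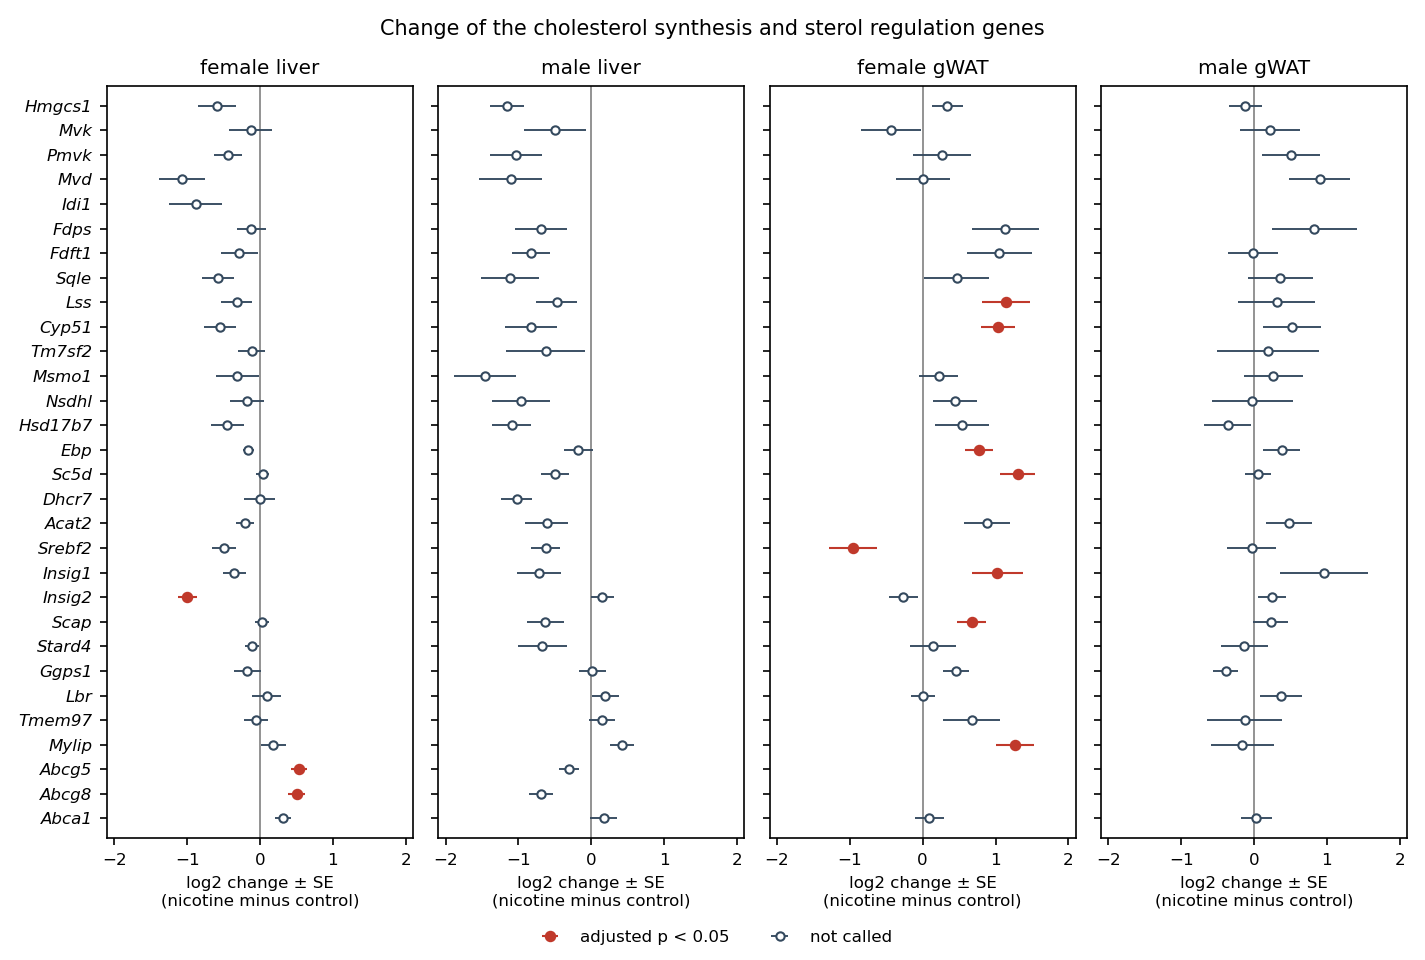
Log2 change (nicotine minus control, x axis, ± SE) of each of the 30 genes (rows, synthesis enzymes at the top, exporters at the bottom) in the 4 comparisons; filled red points passed an adjusted p of 0.05, open points did not, and a missing point was not tested. Female liver has Insig2 at -0.999 and Abcg5 and Abcg8 at 0.53 and 0.50, male liver has most enzymes left of 0 with none called, and female gWAT has 7 genes called higher and Srebf2 called lower.

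In the liver of daughters of nicotine-exposed fathers, 3 of the 30 genes changed: Insig2 was lower, and the exporter pair Abcg5 and Abcg8 was higher. Of all genes tested there, 3.28% were called, 1.61% higher and 1.67% lower. Insig2, the INSIG form that predominates in liver, had 491, 391, 562, 321 and 496 normalized counts in nicotine libraries, against 1008, 953, 688, 882 and 945 in control libraries. The 2 groups did not overlap, and the highest nicotine library lay below the lowest control. Its mean fell to 452 ± 95.6 in nicotine livers, against 895 ± 124 in control livers (SD, n = 5 each), a change of -0.999 ± 0.13 (limma adjusted p = 0.000164). Groups without overlap, lower with nicotine, were seen for 2.49% of all genes tested.

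Mouse Insig2 (chr1:121304353-121332589, minus strand, GRCm38, GENCODE M21) has several transcription starts in RefSeq, and a liver form known as Insig2a differs from the common form in its first exon. The 3′ tags do not tell the starts apart, so the change is that of the whole gene. The sequence upstream of the first RefSeq start is shown because Insig2 carried the largest change among the called genes of this list in liver. Capitals mark CCAAT or its reverse complement ATTGG, the core bound by NF-Y, a factor that works beside SREBP at many sterol genes. It runs 5′ to 3′ on the gene's own strand and ends at the base before the start (RefSeq, GRCm38.p6, chr1:121332590-121332739, minus strand).
Insig2: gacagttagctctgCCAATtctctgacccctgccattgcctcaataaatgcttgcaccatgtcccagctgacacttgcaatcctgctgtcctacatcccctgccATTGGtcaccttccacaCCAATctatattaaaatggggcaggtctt
The 150 bases hold 3 such cores; the windows of the same length at the other 2 RefSeq starts of Insig2 hold none of the 3 motifs searched here. Over 250 bases before the start, CCAAT on either strand was found in 22 of the 26 members with a promoter in the RefSeq table (84.6%) and in 37.5% of all 27018 genes. CACGTG, the E-box that USF and SREBP proteins can bind, was in 6 of 26 members (23.1%) and in 6.86% of all genes. The sterol response element core, searched as TCACNCCAC on both strands, was in 1 of 26 (Hmgcs1) and in 1.23% of all genes. These matches describe letters in a window and were not tested as binding sites. Only these exact strings were searched, so a window without a match was not shown to lack a site.

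Abcg5 had 199, 177, 143, 197 and 160.1 normalized counts in nicotine libraries, against 109, 127, 123, 129 and 113 in control libraries of female liver. Its partner Abcg8 had 254, 314, 232, 302 and 251, against 156, 208, 230.2, 179.7 and 179. For both genes every nicotine library stood above every control, by a small margin for Abcg8; groups without overlap in that direction were seen for 2.25% of all genes. Abcg5 averaged 175 ± 24.0 in nicotine and 120.2 ± 9.03 in control livers (change 0.53 ± 0.11, limma adjusted p = 0.00923), and Abcg8 averaged 271 ± 35.4 and 191 ± 28.7 (change 0.50 ± 0.11, limma adjusted p = 0.0169). The Abcg8 call ended without nicotine library 4 (adjusted p = 0.0528), without control library 1 (0.0518) or without control library 5 (0.0523). It also ended without nicotine library 5 and control library 4 together (adjusted p = 0.0595), in which skeletal muscle markers summed to 257 and 139, against at most 15.7 in the other 8 libraries. Abca1, the third exporter, had 216, 193, 172, 189 and 232 in nicotine libraries, against 166, 189, 142, 171 and 139 in controls; 3 of 5 nicotine libraries lay above all controls and the gene was not called (change 0.31 ± 0.11, adjusted p = 0.134).

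Abcg5 (chr17:84658234-84683011, minus strand) and Abcg8 (chr17:84676302-84700333, plus strand, GRCm38) are transcribed in opposite directions from neighbouring starts, and in RefSeq 109 bases separate the start of Abcg5 from that of Abcg8. Those bases are shown because the pair moved together (GRCm38.p6, chr17:84683012-84683120, plus strand, the orientation of Abcg8).
Abcg5-Abcg8: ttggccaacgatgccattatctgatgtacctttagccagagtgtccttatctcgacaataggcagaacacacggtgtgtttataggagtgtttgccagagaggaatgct
None of the 3 motifs above is found in this stretch. Exons of the 2 genes share 82 bases on opposite strands in GENCODE.

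The other regulators of the daughters' liver were not called. Srebf2 had 52.1, 38.0, 36.5, 49.1 and 58.9 normalized counts in nicotine libraries, against 74.8, 70.4, 46.0, 66.6 and 73.7 in controls (change -0.49 ± 0.17, adjusted p = 0.112). Control library 3 lay within the nicotine range and the other 4 controls lay above it. Without that library Srebf2 was called lower (adjusted p = 0.0338). Leaving out a single other library instead gave an adjusted p of up to 0.241 for Srebf2. Insig1, itself an SREBP target, had 168, 84.6, 116, 165 and 149.8, against 203, 164, 140.0, 159.8 and 188 (change -0.35 ± 0.16, adjusted p = 0.255), with overlapping groups. Scap had 223, 230.1, 190.1, 189.8 and 244, against 189, 234, 216, 217 and 199, and the groups covered nearly the same range (change 0.03 ± 0.10, adjusted p = 0.931).

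None of the 19 synthesis enzymes was called in female liver, although 17 of them had a change below 0 (50.7% of all genes did), with a median over the enzymes of -0.28. Over all 30 genes the median change was -0.18, and over all genes tested -0.0045. The 3 enzymes closest to the threshold, Mvd, Sqle and Cyp51, shared 1 pattern. Nicotine library 1 lay within the control range, and 3 of the other 4 nicotine libraries lay below every control. The pattern did not hold for all 6 enzymes with an unadjusted limma p under 0.05. Mvd, which decarboxylates mevalonate diphosphate, had 126, 35.2, 26.9, 51.3 and 66.1 normalized counts in nicotine libraries, against 132, 115, 61.4, 98.0 and 191 in controls (change -1.07 ± 0.32, limma adjusted p = 0.0700). Sqle, the squalene epoxidase, had 241, 112, 134, 79.6 and 170.4, against 233, 186, 144, 210.2 and 278 (change -0.57 ± 0.22, adjusted p = 0.164). Cyp51, the lanosterol demethylase, had 688, 262, 295, 277 and 494, against 579.7, 611, 348, 566 and 712 (change -0.55 ± 0.22, adjusted p = 0.188). For Sqle and Cyp51 nicotine library 1 was the second highest of all 10. Dhcr7, the last reductase of the pathway, overlapped fully, with 67.8, 32.3, 34.4, 40.3 and 45.5 in nicotine libraries, against 50.5, 27.0, 37.4, 44.7 and 61.9 in controls (change -0.00597, adjusted p = 0.993). The 19 genes not named here individually for female liver had changes of -0.88 (Idi1, the isomerase of isopentenyl diphosphate) to 0.18 (Mylip), 16 of them below 0.

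Averaged over the 19 enzymes as log2 level minus the control mean, female liver nicotine libraries 1 to 5 stood at 0.36, -0.79, -0.46, -0.66 and -0.09, against 0.10, -0.04, -0.41, 0.03 and 0.33 in control libraries 1 to 5. Nicotine library 1 was thus the highest of all 10, and control library 3 lay among the nicotine libraries. Without nicotine library 1, 7 of the 30 genes were called, with Mvd (adjusted p = 0.00656), Sqle (0.0319), Cyp51 (0.0274) and Hmgcs1 lower beside the first 3. Without control library 3, 5 were called, with Srebf2 and Mvd (0.0244) lower. Leaving out a single other library instead gave adjusted p of up to 0.202 for Mvd, 0.363 for Sqle and 0.375 for Cyp51. Endothelial markers (4 of 4 listed) summed to 440.4 to 536 in nicotine and 625 to 655 in control libraries without overlap, and their part in these results was not tested. The authors' deposited table lists the same 3 genes, Insig2, Abcg5 and Abcg8, at an adjusted p under 0.05. Of its 8471 genes with an adjusted p, 3.73% were under that threshold.

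**Figure D2:**
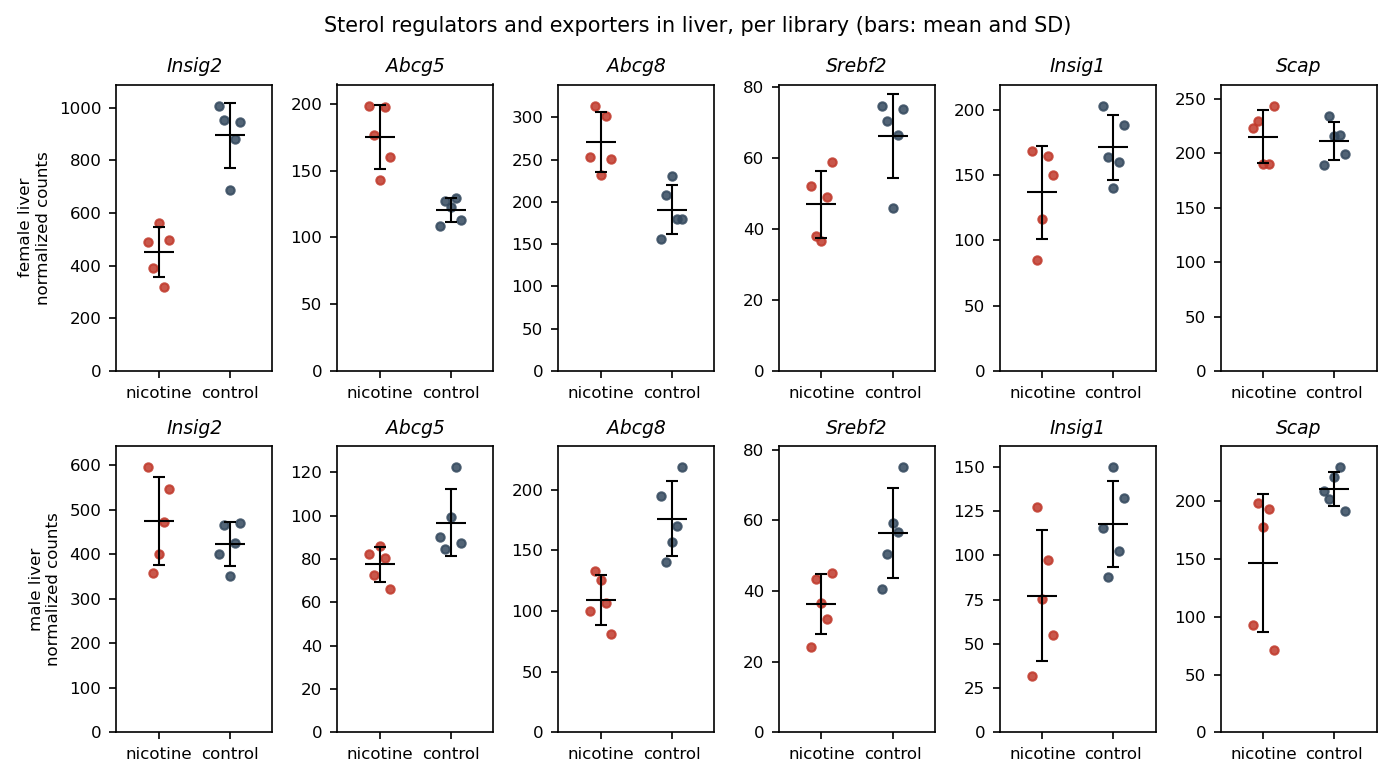
Normalized counts (y axis, linear from 0) of 6 sterol regulators and exporters in female liver (top) and male liver (bottom), nicotine left of control; points are libraries, bars the mean and SD (n = 5). Insig2, Abcg5 and Abcg8 separate the groups of female liver completely, and in male liver only Abcg8 of these 6 does, in the opposite direction.

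In the liver of sons, most synthesis enzymes had lower means with paternal nicotine, but 0 of the 29 tested genes passed the test by limma or edgeR (Idi1 had a mean under 10). Only 5 genes of the table, 0.055%, were called. At an unadjusted limma p under 0.05, 16 of the 29 were lower and 1, Mylip, was higher, against 7.61% lower and 6.93% higher among all genes. Groups did not overlap for 5 members, all lower, against 1.85% of all genes: Hmgcs1, Msmo1, Hsd17b7, Dhcr7 and Abcg8. The median change of the 29 was -0.63, against 0.00 over all genes tested, and that of the 18 tested enzymes was -0.83, with 17 of them below 0 (4546 of all 9093 genes were).

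Hmgcs1, which condenses acetyl-CoA with acetoacetyl-CoA at the head of the pathway, had 313, 621, 485, 539 and 313 normalized counts in nicotine libraries, against 739.7, 736, 1487, 994 and 1101 in control libraries of male liver. Nicotine libraries 1 and 5 were the lowest, and the other 3 also lay below every control. The change was -1.16 ± 0.24 (limma adjusted p = 0.113). Pmvk, the phosphomevalonate kinase, had 22.1, 57, 60.7, 71.7 and 22.1, against 80.1, 46.4, 129, 82.2 and 118 (change -1.03 ± 0.36, adjusted p = 0.239). Fdft1, the squalene synthase, had 13.2, 28.0, 23.0, 39.7 and 17.2, against 35.6, 34.8, 44.3, 39.1 and 53.8 (change -0.83 ± 0.26, adjusted p = 0.195). Both of these overlapped between the groups.

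Among the later steps, Msmo1, the sterol methyl oxidase, had 88.3, 431, 365, 413 and 87.6 normalized counts in nicotine libraries, against 669, 535, 656, 537 and 632 in controls (change -1.45 ± 0.43, adjusted p = 0.177). Hsd17b7, the sterol ketone reductase, had 100.05, 284, 264, 251 and 121, against 377, 353, 473, 385 and 420.0 (change -1.09 ± 0.27, adjusted p = 0.128). In both, nicotine libraries 1 and 5 lay far below the other 3, which in turn lay below every control. Dhcr7 had 18.4, 35.2, 15.7, 21.8 and 16.4, against 39.6, 41.1, 51.4, 43.1 and 40.3 (change -1.03 ± 0.21, adjusted p = 0.121); here library 3, not 1 or 5, was the lowest. Nicotine library 2 was the highest of the 5 for Dhcr7. In it exocrine pancreas markers (3 of 4 listed, Prss2 not) summed to 4826, against 58.5 to 78.3 in controls. Without that library Dhcr7 was called lower (limma adjusted p = 0.0235). Leaving out a single other library instead gave an adjusted p of up to 0.289 for Dhcr7. The 16 genes not named individually for male liver had changes of -1.12 (Sqle) to 0.42 (Mylip), 12 of them below 0. Lbr, the sterol reductase of the nuclear envelope, at 0.19, was the 1 enzyme above 0.

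The promoters of Hmgcs1 and Hsd17b7 are shown because these enzymes lay below all controls in every nicotine library of male liver and were listed by the authors. Each line gives the 150 bases before the RefSeq start, 5′ to 3′ on the gene's strand (GRCm38.p6; Hmgcs1 chr13:119690201-119690350, plus strand; Hsd17b7 chr1:169969206-169969355, minus strand), with TCACNCCAC, CCAAT and CACGTG or their reverse complements in capitals.
Hmgcs1: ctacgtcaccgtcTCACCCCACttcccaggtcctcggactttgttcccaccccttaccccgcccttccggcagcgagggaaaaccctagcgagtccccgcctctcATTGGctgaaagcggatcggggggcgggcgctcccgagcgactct
Hsd17b7: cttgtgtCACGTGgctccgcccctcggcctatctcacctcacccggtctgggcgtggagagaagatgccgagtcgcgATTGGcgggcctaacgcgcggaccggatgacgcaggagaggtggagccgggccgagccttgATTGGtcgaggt
Hmgcs1 holds the sterol response element core and 1 CCAAT core, and Hsd17b7 holds an E-box and 2 CCAAT cores. Dhcr7 met the same rule and is not shown. Its windows of the same length at RefSeq starts 1 and 2 hold none of these motifs, and that at start 3 holds 2 CCAAT cores.

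**Figure D3:**
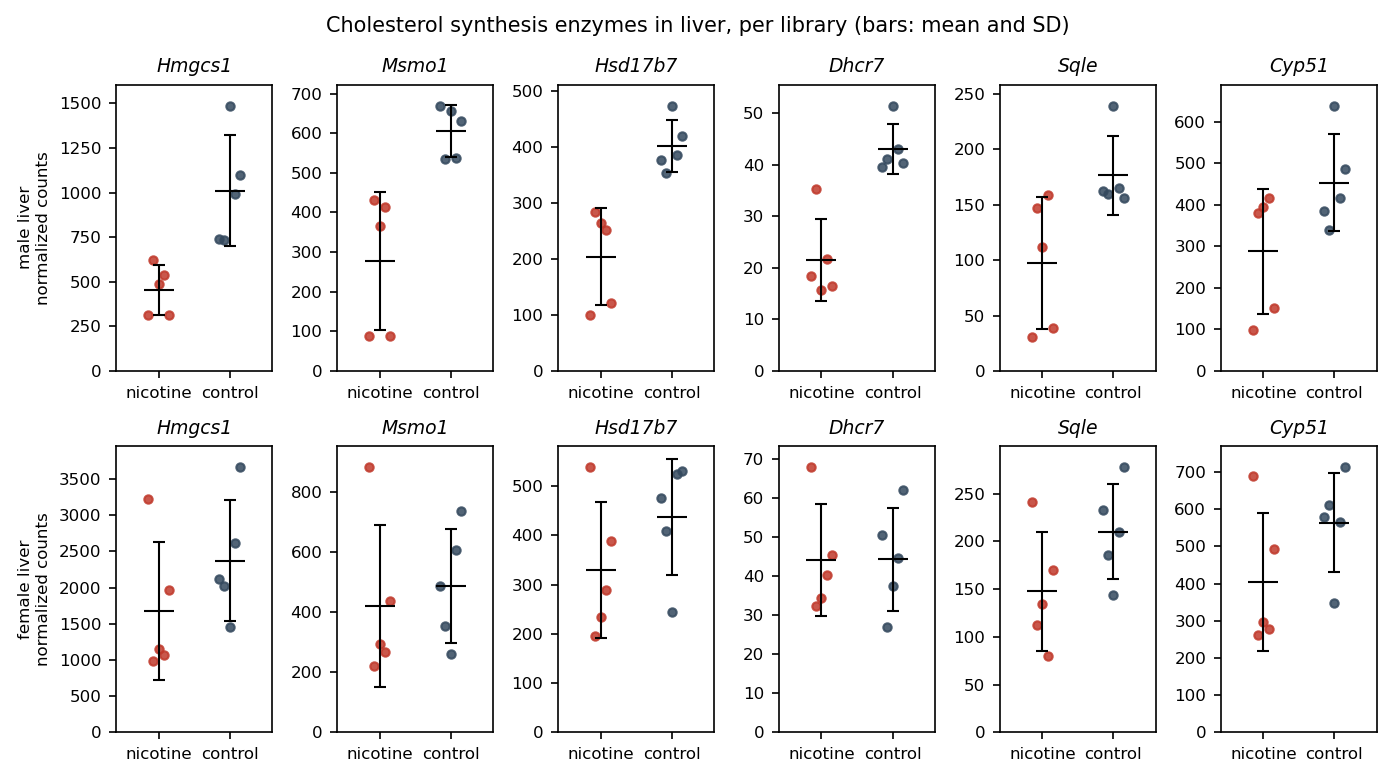
Normalized counts (y axis, linear from 0) of 6 synthesis enzymes in male liver (top) and female liver (bottom), nicotine left of control; points are libraries, bars the mean and SD (n = 5). In male liver the nicotine groups of Hmgcs1, Msmo1, Hsd17b7 and Dhcr7 lie wholly below the controls, 2 libraries lie far below the rest for Msmo1, Sqle and Cyp51, and in female liver all 6 overlap.

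Among the regulators of male liver, Srebf2 had 24.3, 43.5, 36.7, 32.0 and 45.0 normalized counts in nicotine libraries, against 40.5, 50.6, 59.4, 56.8 and 75.0 in controls (change -0.63 ± 0.20, adjusted p = 0.208). Insig1 had 31.6, 127, 75.4, 97.3 and 54.9, against 116, 87.5, 149.8, 103 and 132 (change -0.72 ± 0.30, adjusted p = 0.304). Scap had 92.7, 198, 177, 193 and 71.2, against 209, 201.4, 221, 229 and 192 (change -0.63 ± 0.26, adjusted p = 0.296). All 3 overlapped between the groups, and for Scap libraries 1 and 5 lay far below the rest. Insig2 had 595, 358, 400.0, 472 and 547, against 401, 466, 350.1, 425 and 470.5; libraries 1 and 5 were its 2 highest, and its change without them was -0.04 ± 0.14 (change with all libraries 0.15 ± 0.15, adjusted p = 0.690).

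Abcg8 had 100.05, 133, 126, 106 and 81.1 normalized counts in nicotine libraries of male liver, against 195, 140.3, 157, 170.3 and 218 in controls (change -0.69 ± 0.16, adjusted p = 0.122). Abcg5 had 82.4, 72.6, 85.9, 80.6 and 66.3, against 90.0, 84.4, 99.3, 122 and 87.4 (change -0.31 ± 0.14, adjusted p = 0.337). Every nicotine library of Abcg8 and 4 of 5 of Abcg5 lay below all controls. Abca1 had 189.8, 203, 265, 137 and 151, against 204, 194, 159, 139 and 134, with overlapping groups (change 0.17 ± 0.19, adjusted p = 0.711).

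Male liver nicotine libraries 1 and 5 set much of the size of these changes. The mean log2 level of the 18 enzymes minus the control mean was -1.63, -0.22, -0.44, -0.10 and -1.50 in nicotine libraries 1 to 5, against -0.04, -0.29, 0.27, -0.02 and 0.08 in control libraries 1 to 5. In libraries 1 and 5, genes biased towards male liver (7 of 7 listed) summed to 1270 and 1929, against 7003 to 7893 in the other nicotine libraries and 5420 to 11430 in controls. Hepatocyte markers summed to 46788 and 46524 there, against 56814 to 65519 in controls, and macrophage markers to 508 and 473, against 252 to 389. Fibroblast markers summed to 1573, 1341 and 1368 in nicotine libraries 1, 4 and 5, against 536 to 674 in controls. Skeletal muscle markers summed to 4862 in nicotine library 4 and at most 5.89 in the others. The part of these cell types in the enzyme levels was not tested.

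Without libraries 1 and 5 the median change of the same 29 genes was -0.18, that of the 18 enzymes was -0.22 with 15 of them below 0, and 0 were called. At an unadjusted limma p under 0.05, 6 of the 29 were then lower (Hmgcs1, Msmo1, Hsd17b7, Dhcr7, Srebf2 and Abcg8) and 1, Mylip, was higher, against 5.78% lower among all genes. The change of Hmgcs1 was then -0.84 ± 0.19 (limma adjusted p = 0.106), that of Msmo1 -0.58 ± 0.12 (0.0800), that of Hsd17b7 -0.59 ± 0.13 (0.0822), that of Dhcr7 -0.87 ± 0.24 (0.177) and that of Abcg8 -0.52 ± 0.16 (0.219). For these 5 genes every nicotine library already lay below every control with all libraries, so leaving some out could not change that. Cyp51 (-0.16 ± 0.17), Nsdhl (-0.18 ± 0.15) and Scap (-0.15 ± 0.12) had smaller changes, none of them called, and Tm7sf2 stood at 0.46 ± 0.22. The authors' deposited table, with all libraries, lists 4 of the genes at an adjusted p under 0.05, all lower. Of its 10531 genes with an adjusted p, 0.703% were lower at that threshold. The 4 were Hmgcs1 (log2 fold change -1.005, adjusted p = 0.00166), Hsd17b7 (-0.83, 0.0304), Dhcr7 (-0.86, 0.0213) and Abcg8 (-0.64, 0.0226). DESeq2 run on the recovered reads called the same 4, against 0.88% of all genes called lower.

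**Figure D4:**
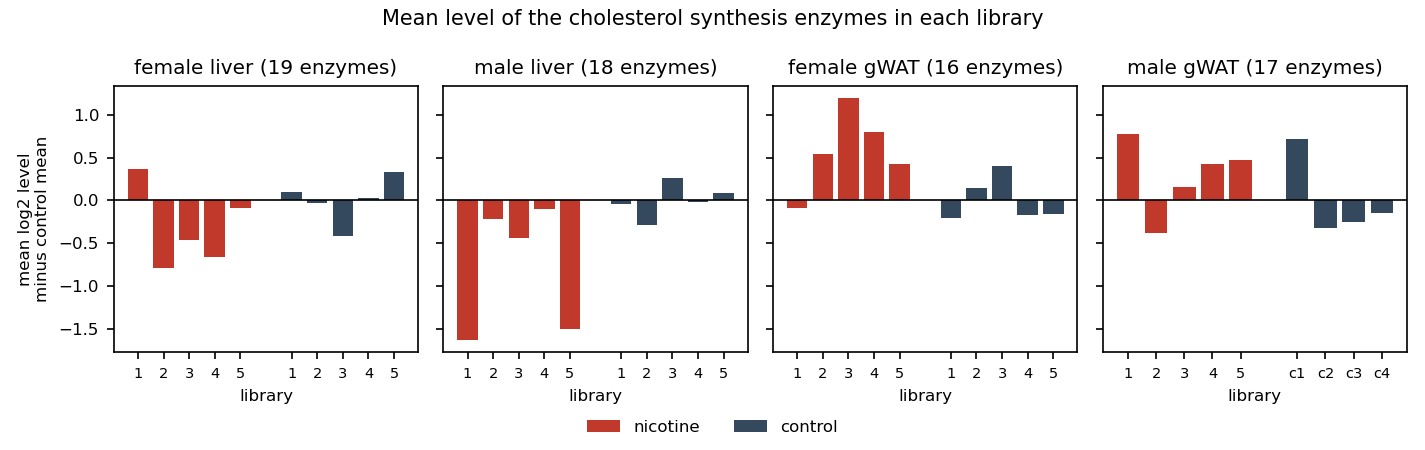
Mean log2(normalized count + 1) of the tested synthesis enzymes in each library minus the control mean (y axis), in the 4 tables, nicotine bars left of control bars; numbers are libraries and c1 to c4 the unnumbered male gWAT control columns. Male liver nicotine libraries 1 and 5 lie at -1.63 and -1.50, female liver nicotine library 1 lies at 0.36, and male gWAT nicotine library 1 and control column 1 lie at 0.78 and 0.72.

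The difference between the sexes was tested directly as the change in daughters minus the change in sons. In liver 3 of 29 genes passed, against 1.56% of all genes. Abcg8 differed by 1.19 ± 0.21 (limma adjusted p = 0.00389), with 0.50 in daughters and -0.69 in sons. Abcg5 differed by 0.84 ± 0.17 (adjusted p = 0.0128), with 0.53 in daughters and -0.31 in sons. For both subunits of the exporter the change was above 0 in daughters and below 0 in sons, where neither was called. Insig2 differed by -1.15 ± 0.22 (adjusted p = 0.00846), with -0.999 in daughters and 0.15 in sons. Dhcr7, next in order, did not pass (1.02 ± 0.32, adjusted p = 0.117), but did without male liver nicotine library 2 (adjusted p = 0.0302). Leaving out a single other liver library instead gave an adjusted p of up to 0.207 for Dhcr7. The 3 calls also passed without male liver nicotine libraries 1 and 5, with adjusted p of 0.00703 for Abcg8, 0.0265 for Abcg5 and 0.0139 for Insig2. None of the 18 enzymes passed, but 17 of the 18 differences were above 0 (50.5% of all genes), with a median of 0.54. That lean rested on male liver nicotine libraries 1 and 5: without them 8 of the same 18 differences were above 0 (48.6% of all genes), with a median of -0.0387.

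In the gonadal fat of daughters, 8 of the 25 tested genes were called. The synthesis enzymes Sc5d, Lss, Cyp51 and Ebp, the regulators Insig1 and Scap, and Mylip were higher with paternal nicotine, and Srebf2 was lower. This fat table had many calls in all, 25.2% of the genes tested (12.4% higher and 12.8% lower), and the counts of 7 of 25 higher and 1 of 25 lower stand against those shares. Of the 25, 22 had a change above 0 (48.4% of all genes did), and their median was 0.47, against -0.03 over all genes. Abcg5 and Abcg8 are not listed in that table, and Idi1, Tm7sf2 and Dhcr7 had means under 10.

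Sc5d, the lathosterol desaturase (chr9:42251595-42264256, minus strand, GRCm38), had 265, 424, 565, 524 and 314 normalized counts in nicotine libraries, against 122, 160.3, 234, 125 and 195 in control libraries of female gWAT (change 1.31 ± 0.24, limma adjusted p = 0.00196). Mylip, a ubiquitin ligase and LXR target that limits lipoprotein uptake, had 131, 136, 73.6, 135 and 85.3, against 31.4, 37.6, 34.9, 67.8 and 62.9 (change 1.27 ± 0.26, adjusted p = 0.00362). Ebp, the sterol isomerase, had 98.6, 109, 157, 181 and 127, against 82.3, 66.0, 71.6, 72.4 and 91.9 (change 0.77 ± 0.19, adjusted p = 0.0101). For these 3 genes every nicotine library lay above every control, as did 8.48% of all genes. Cyp51 had 83.7, 122, 194, 185 and 128, against 60.8, 65.0, 91.7, 55.0 and 62.9 (change 1.03 ± 0.23, adjusted p = 0.00597), and only nicotine library 1 lay within the control range. These 4 genes passed without each of the 10 libraries in turn. The 150 bases before the RefSeq start of Sc5d, shown as the gene that moved most here and also differed between the sexes, hold 1 E-box and 1 CCAAT core in capitals (GRCm38.p6, chr9:42264301-42264450, minus strand).
Sc5d: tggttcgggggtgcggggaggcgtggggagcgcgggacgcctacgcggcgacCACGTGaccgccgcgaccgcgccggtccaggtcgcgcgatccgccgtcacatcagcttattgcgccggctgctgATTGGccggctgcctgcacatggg

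The other 4 calls ended when one or another library was left out. Lss, the lanosterol synthase, had 14.9, 26.6, 34.6, 21.6 and 23.4 normalized counts in nicotine libraries, against 5.88, 7.33, 16.6, 11.9 and 11.6 in controls (change 1.14 ± 0.33, adjusted p = 0.0226). Only nicotine library 1 of Lss lay within the control range; its call ended without nicotine library 2 (0.0530) or 3 (0.0609). Insig1 had 16.1, 53.1, 51.8, 56.5 and 53.4, against 22.5, 11.0, 29.7, 20.2 and 23.2 (change 1.02 ± 0.35, adjusted p = 0.0452), and 4 of 5 nicotine libraries lay above all controls. Scap had 104, 72.5, 83.6, 103 and 130.3, against 48.0, 67.8, 73.4, 49.5 and 67.1 (change 0.68 ± 0.20, adjusted p = 0.0236); the lowest nicotine library fell just below the highest control. Srebf2 had 31.0, 18.1, 33.6, 13.2 and 45.0, against 41.2, 92.5, 38.4, 55.9 and 41.4 (change -0.95 ± 0.33, adjusted p = 0.0474), and control library 2 was its highest by a wide margin. The Scap call ended without nicotine library 4 (0.0526) or 5 (0.0568), or without control library 1 (0.0560) or 4 (0.0556). Insig1 stayed called only without nicotine library 1 or control library 3, and Srebf2 only without nicotine library 1, 3 or 5; otherwise their adjusted p ran from 0.0648 to 0.107 for Insig1 and from 0.0529 to 0.117 for Srebf2. The mean log2 level of the 16 tested enzymes minus the control mean was -0.09, 0.54, 1.19, 0.80 and 0.42 in nicotine libraries 1 to 5, against -0.21, 0.14, 0.40, -0.17 and -0.16 in control libraries 1 to 5, so nicotine library 1 lay among the controls. Without it 12 genes were called, and without nicotine library 2, nicotine library 4, control library 1 or control library 4 only 5 were.

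Acat2, the cytosolic acetoacetyl-CoA thiolase, had 97.5, 219, 398, 335 and 198 normalized counts in nicotine libraries of female gWAT, against 123, 120.0, 185, 98.0 and 96.1 in controls, and just missed the threshold (change 0.89 ± 0.32, adjusted p = 0.0538); Acat3, a close paralog, lies beside it and may share its reads. At an adjusted p under 0.05, 18.9% of the 15321 genes with an adjusted p passed in the authors' deposited table. It lists 9 of the genes described here. Those are Acat2 (log2 fold change 0.93), the 7 called higher here, and Tm7sf2, a sterol reductase, as lower (-1.30, adjusted p = 0.0363). Tm7sf2 had only 6.88, 3.62, 1.82, 6.01 and 0 in nicotine libraries, against 9.80, 9.16, 16.6, 10.1 and 9.94 in controls, with every nicotine value below every control; its mean was too low for the test used here. The 15 tested genes not named individually for female gWAT had changes of -0.44 (Mvk, the mevalonate kinase) to 1.13 (Fdps, the farnesyl diphosphate synthase), 13 of them above 0.

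Markers of other cells also differed with exposure in female gWAT, and the changes varied with properties of the transcripts. Macrophage markers (5 of 6 listed, Clec4f not) summed to 40.9 to 104 in nicotine and 165 to 315 in control libraries. A separate list of lipid-loaded macrophage markers (Gpnmb, Trem2, Spp1 and Lpl) summed to 16873 to 36218 in nicotine and 14699 to 29964 in control libraries. Endothelial markers summed to 752 to 1447 in nicotine and 478 to 1106.5 in control libraries, and mesothelial markers to 14.4 to 75.0 and 40.2 to 169. These last lists overlapped between the groups. Fibroblast markers summed to 1766 to 5927 in nicotine and 3665 to 7913 in control libraries, with overlap. Skeletal muscle markers summed to 18966 in control library 2, against at most 1118 in any nicotine library; without control library 2, 6 of the genes were called (Insig1 and Srebf2 were not). Across 9990 genes the log2 change correlated with transcript length (Spearman rho = 0.23) and with GC content (rho = -0.21), a description over genes that share libraries. Such trends were not particular to female gWAT. The same values for length and GC were -0.19 and 0.18 in male gWAT, -0.13 and 0.05 in male liver, and 0.008 and -0.05 in female liver. With each library's trend on length and GC removed, 7 of the genes were called in female gWAT: Lss (adjusted p = 0.0540) and Srebf2 (0.0777) dropped out and Acat2 (0.0364) came in. The part of macrophage, fibroblast, endothelial, mesothelial and muscle RNA was not tested.

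**Figure D5:**
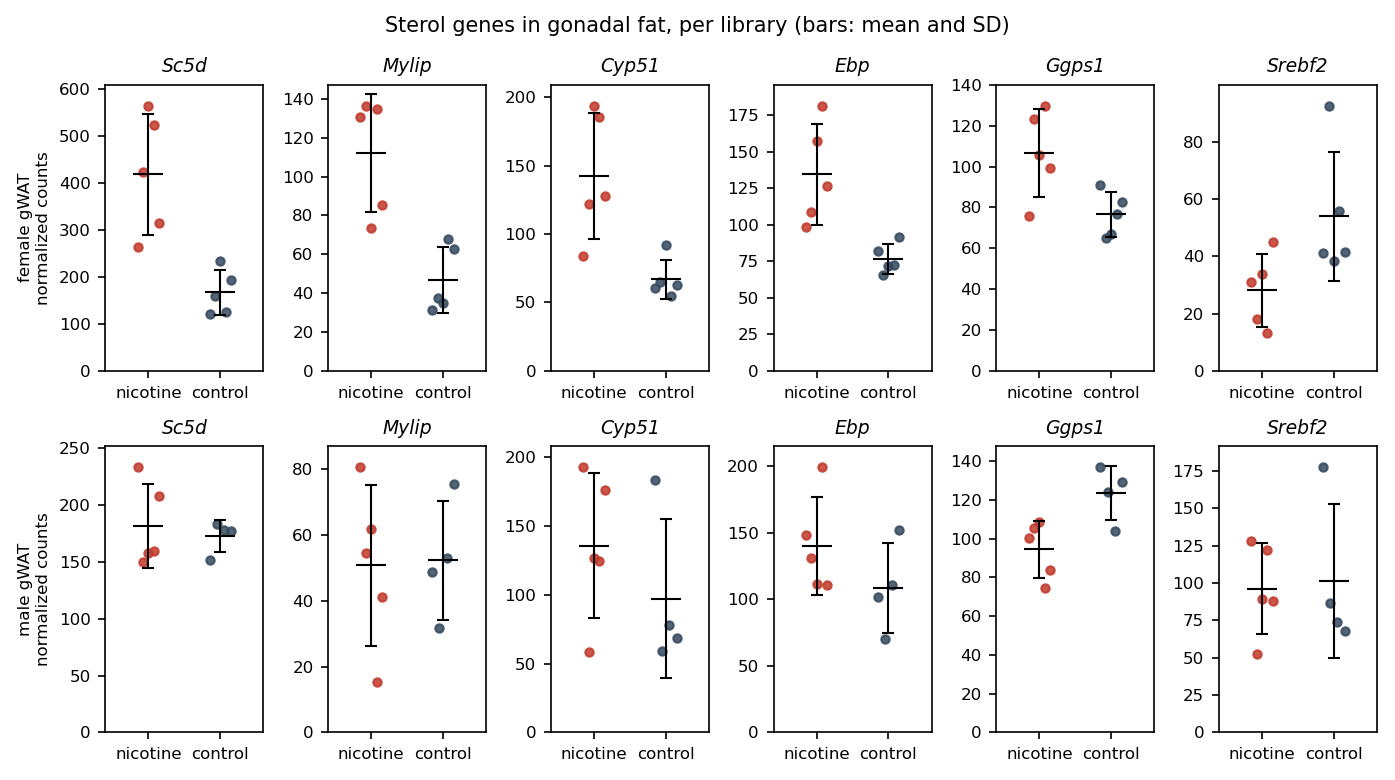
Normalized counts (y axis, linear from 0) of 6 genes in female gWAT (top) and male gWAT (bottom), nicotine left of control; points are libraries, bars the mean and SD (n = 5, and n = 4 for male gWAT control). In female gWAT Sc5d, Mylip and Ebp separate the groups with nicotine higher, and in male gWAT all 6 overlap.

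In the gonadal fat of sons, 0 of 26 tested genes were called by limma, edgeR or DESeq2, and limma called 0 of 11210 genes (0.0%). Abcg5 and Idi1 are not listed in that table, and Abcg8 and Dhcr7 had means under 10. At an unadjusted limma p under 0.05 there was 1 gene, Ggps1, lower, against 0.767% of all genes. Ggps1, which makes geranylgeranyl diphosphate for protein prenylation, had 100.1, 105, 108, 74.3 and 84.0 normalized counts in nicotine libraries, against 137, 124, 104 and 129 in the 4 control columns (change -0.39 ± 0.18). The groups overlapped through control column 3. Mvd had 39.8, 13.2, 31.0, 30.8 and 29.3, against 29.0, 14.6, 13.0 and 6.95 (change 0.90 ± 0.42), and Insig1 had 34.4, 12.2, 5.81, 17.2 and 64.0, against 13.6, 7.28, 14.0 and 6.08 (change 0.96 ± 0.60). Acat2 had 256, 114, 152, 184 and 251, against 234, 92.0, 115 and 117 (change 0.48 ± 0.32). All of these overlapped, and the adjusted p of every gene was 1.00 after rounding.

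The enzymes of male gWAT were high in 1 library of each group. Their mean log2 level minus the control mean was 0.78, -0.38, 0.15, 0.42 and 0.47 in nicotine libraries 1 to 5, against 0.72, -0.32, -0.25 and -0.15 in control columns 1 to 4. Epididymis markers (4 of 4 listed) summed to 13551 in nicotine library 1 and 17914 in control column 1, the 2 highest of the 9 libraries. Adipocyte markers were lowest there, at 5173 and 4183, against 8740 to 14073 in the others. Hepatocyte markers summed to 2828 in nicotine library 1, against 166 to 597 in the others. The part of these cell types in the enzyme levels was not tested. Srebf2 was also highest in nicotine library 1 and control column 1. It had 128, 52.7, 89.0, 122 and 88.0 in nicotine libraries, against 178, 86.5, 74.0 and 67.7 in control columns. Without both libraries 0 genes were called, and the change of Srebf2 was 0.15 in place of -0.03.

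The sexes differed in fat for 2 of 25 genes, against 8.87% of all genes tested, so the share was near that background. Sc5d differed by 1.25 ± 0.32 (daughters minus sons, limma adjusted p = 0.0203), with 1.31 in daughters and 0.05 in sons. The sons' libraries had 233, 149.7, 158, 159.5 and 208 normalized counts with nicotine, against 152, 184, 178 and 177 in control columns. Ggps1 differed by 0.85 ± 0.25 (adjusted p = 0.0390); the daughters' libraries had 75.7, 123, 105, 129.8 and 99.4 with nicotine, against 91.1, 65.0, 67.3, 77.0 and 82.8 in controls. Its change was 0.46 in daughters and -0.39 in sons, and neither alone was called. Mylip (1.43 ± 0.51, adjusted p = 0.0816) and Srebf2 (-0.92 ± 0.49, adjusted p = 0.243) did not pass. Sc5d passed without each of the 19 libraries in turn, while Ggps1 lost its call without any of 10 of them (adjusted p 0.0541 to 0.0767), namely female nicotine 2 or 4, female control 2, 3 or 4, male nicotine 4 or 5, or male control column 1, 2 or 4. With the length and GC trend removed, both ended (Sc5d adjusted p = 0.0507, Ggps1 0.0909).

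Genes that work beside the 30 were read from lists of partner enzymes (6), sterol sensing and SREBP processing (12), sterol uptake, storage and transport (19) and the isoprenoid branch (11). In female liver 1 of the 43 tested was called, against 3.28% of all genes tested. This was Npc1, which exports cholesterol from lysosomes. Npc1 averaged 263 ± 32.1 normalized counts in nicotine livers and 195 ± 23.2 in control livers (SD, n = 5 each, change 0.43 ± 0.11, limma adjusted p = 0.0296). The smallest p of the other lists reported here belonged to Srebf1, the fatty acid SREBP (0.56 ± 0.18, adjusted p = 0.0933) and Fnta, a farnesyltransferase subunit (0.24 ± 0.12, adjusted p = 0.315). None of the 43 was called in male liver. There Erlin1, a membrane protein of the endoplasmic reticulum (0.55 ± 0.21, adjusted p = 0.268), and Fnta (-0.28 ± 0.16, adjusted p = 0.424) had the smallest p of their lists. Between the sexes 1 gene of these lists, Npc1, differed in liver (0.72 ± 0.16, limma adjusted p = 0.0248), against 1.56% of all genes tested. Its change was -0.29 in sons, and it differed in the same direction as the exporters Abcg5 and Abcg8.

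In female gWAT 9 of the 40 tested partner genes were called, a smaller share than the 25.2% of all genes. Of those reported here, higher were Npc1 (1.36 ± 0.26, limma adjusted p = 0.00244), Scarb1, the HDL receptor (0.85 ± 0.24, 0.0197), Osbpl9, a lipid transfer protein (0.52 ± 0.16, 0.0294), and Pdss2 of coenzyme Q synthesis (0.58 ± 0.20, 0.0479). Lower were Soat1, which esterifies cholesterol (-1.89 ± 0.36, 0.00225), Icmt, which methylates prenylated proteins (-1.06 ± 0.33, 0.0329), and Npc2, the lysosomal partner of NPC1 (-0.66 ± 0.22, 0.0443). Soat1 averaged 20.7 ± 11.3 normalized counts in nicotine fat and 72.8 ± 21.9 in control fat (SD, n = 5 each). Its change differed between the sexes (-2.02 ± 0.60, limma adjusted p = 0.0406). It was the only gene of these lists to do so, against 8.87% of all genes tested. Macrophage markers of female gWAT summed to 40.9 to 104 in nicotine and 165 to 315 in control libraries, while the lipid-loaded list overlapped. The part of macrophage RNA in these changes was not tested. None of the 42 tested was called in male gWAT.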

How the data were processed

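The 39 libraries come from 3′-tag RNA sequencing, 1543208 to 2239073 reads each. Per the submitters' processing notes, reads passed through cutadapt, STAR (mm10) and DESeq2, with no versions given. The deposited values, a signal rather than raw counts, are DESeq2 normalized counts made separately for each tissue and sex; the log2 fold changes, their standard errors (listed with the unit score) and the p-values of each table are the authors' own, per the file headers. All deposited normalized values came back as whole reads within a tolerance of 0.1 when divided by what 1 read is worth (100% of them); the smallest gene total in a table was 10 reads.

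From the deposited normalized counts, log2(value + 1) was tested with limma 3.58.1 (R 4.3.3, mean trend) within each table, keeping genes whose mean reached 10, and p was adjusted by Benjamini-Hochberg over all 9173 (female liver), 9093 (male liver), 10532 (female gWAT) or 11210 (male gWAT) genes, with a threshold of 0.05. Sex differences came from an interaction contrast of the 4 groups of a tissue. A count model was not the main test because the files hold normalized values. Alternatives were pseudocounts of 0.5 and 5, no filter, a minimum mean of 50, quantile scaling, edgeR 4.0.16 and DESeq2 1.42.0 on the recovered reads, a replicate block, and leaving out libraries; removal of a length and GC trend, the replicate block for the liver sex difference and leaving out a pair of male gWAT libraries were chosen after seeing the data. Gene positions are from GENCODE M21 and promoters from RefSeq.

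The 30 genes, the pathway lists and the marker lists were chosen with earlier results of these data known. Named were the genes of smallest p in each comparison (8 in liver and 4 in gWAT, and 4 by interaction in each tissue), the regulators and exporters in liver, and every gene called here or listed by the authors; partner genes were named when called, or as the smallest p of each list in liver. Some genes of the pathway lists are not reported here. The limma calculation was tested on simulated data.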

Additional observations from a re-analysis of the deposited data

Results flagged for a closer look

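In 4 of 82 groups of 4 or 5 libraries, 1 library of a named gene lay far from the others; chance flags about 1 in 20 groups. Srebf2 was 46.0 normalized counts in female liver control library 3, with the other controls at 66.6 to 74.8. Insig1 was 16.1 in female gWAT nicotine library 1, with the others at 51.8 to 56.5. Cyp51 was 91.7 in female gWAT control library 3, with the others at 55.0 to 65.0. Srebf2 was 178 in male gWAT control column 1, with the others at 67.7 to 86.5.

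The change with paternal nicotine differed between the sexes by limma's interaction test for 5 genes, given as daughters minus sons. In liver the differences were 1.19 for Abcg8 (adjusted p = 0.00389), 0.84 for Abcg5 (adjusted p = 0.0128) and -1.15 for Insig2 (adjusted p = 0.00846). In gWAT they were 1.25 for Sc5d (adjusted p = 0.0203) and 0.85 for Ggps1 (adjusted p = 0.0390).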

How the results depend on the processing

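Among the values of named genes under the alternatives, 929 kept their direction and side of the threshold, 48 lost a call, 22 gained one and 22 changed sign. The liver calls of Insig2 and Abcg5 in daughters, the 3 liver sex differences, and the female gWAT calls of Sc5d, Mylip, Cyp51 and Ebp held under each alternative run for them. DESeq2 called 4 of the genes in male liver, where limma and edgeR called 0; over all genes of that table limma called 5, edgeR 3 and DESeq2 186. Over all genes limma, edgeR and DESeq2 called 301, 301 and 327 in female liver, 2656, 2560 and 2984 in female gWAT, 0 each in male gWAT, 136, 159 and 252 for the liver sex difference, and 891, 905 and 1307 for the gWAT sex difference. The male liver median was -0.17 over the 30 genes tested without nicotine libraries 1 and 5 (Idi1 then passed the filter). The gWAT sex difference was called for 1 gene without the filter, for 1 without male control column 1 and nicotine library 1, and for 0 with the length and GC trend removed. Leaving out each library in turn gave 2 to 7 calls and medians of -0.33 to -0.13 in female liver, 0 to 1 and -0.77 to -0.45 in male liver, 5 to 12 and 0.37 to 0.68 in female gWAT, and 0 and 0.11 to 0.29 in male gWAT; sex differences numbered 3 to 4 in liver and 1 to 3 in gWAT. Signs turned for uncalled genes with changes near 0. In female liver they turned for Dhcr7 (0.00561 with quantile scaling, 0.00476 with the trend removed, -0.17 to 0.13 leaving out 1 library) and Scap (-0.0106 without control library 4 and nicotine library 5, -0.0212 to 0.0688 leaving out 1 library). In male liver Insig2 stood at -0.0447 without nicotine libraries 1 and 5. In male gWAT, without control column 1 and nicotine library 1 together, Sc5d stood at -0.10 and Srebf2 at 0.15; without control column 1 alone they stood at -0.00645 and 0.27, and without control column 4 Mylip stood at 0.0348. Leaving out 1 nicotine library of male gWAT gave -0.0426 to 0.12 for Sc5d, -0.150 to 0.166 for Srebf2 and -0.37 to 0.21 for Mylip. The cause was not tested. Same-numbered nicotine and control libraries correlated at -0.277 to 0.173. These values cannot show whether such libraries share a litter or day, and the labels do not say what the replicate numbers mark. With a replicate block, 4 genes were called in female liver (Mvd joined) and 0 in male liver. The same 3 were called for the liver sex difference (blocks within each sex). In female gWAT 7 were called, where Acat2 and Fdps joined and Scap, Insig1 and Srebf2 dropped out. No paired analysis was possible for male gWAT or the gWAT sex difference because the male gWAT control columns carry no numbers. Genes with means near 10 rest on few reads, so their changes are imprecise.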
